A study of Mus musculus with 40 samples.

Results

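The insulin-like growth factor (IGF) system and its imprinted neighbour *H19* were followed in heart tissue from CM-Il11-Tg mice, where tamoxifen switches on murine *Il11* in cardiomyocytes. The members were chosen by gene name: the ligands *Igf1* and *Igf2*, the receptors *Igf1r* and *Igf2r*, the binding proteins *Igfbp3*, *Igfbp4*, *Igfbp5*, *Igfbp6* and *Igfbp7*, and *H19*. All 10 are listed in both deposited tables, which share 17038 genes, and all 10 passed the filter on low values in each sex. PolyA RNA was sequenced as 1 library per mouse, and the tables of males and females were scaled separately, so levels were compared within a sex.

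CM-Il11-Tg mice were heterozygous for the α-MHC-MerCreMer transgene, which drives a tamoxifen-dependent Cre in cardiomyocytes, and for *Rosa26-Il11*. Their hearts were taken 1, 3 and 6 weeks after tamoxifen (called induced here), which was given over 5 days from 8 weeks of age, or without tamoxifen (uninduced). Controls, labelled WT, were littermates that carried the Cre transgene without *Rosa26-Il11* and received tamoxifen. The study describes them as of matched age. Labels of control and uninduced hearts read baseline and give no week, and the same controls served every comparison of a sex. Age at sampling is not given for either group, so in comparisons with them age cannot be told apart from induction. Uninduced hearts differed from controls in both genotype and tamoxifen, and these cannot be told apart. Each group held 4 mice, except male controls and males at 6 weeks, with 3 each, because the labels of 2 male libraries contradict each other and both were left out. The values are CPM (reads on a gene, scaled by the authors for the size of each library), from 16663513 to 65333832 reads in male libraries and from 19147947 to 30929192 in female libraries. *Il11*, the induced gene, was at 0, 0.114 and 0.147 CPM in the male controls and at 0.0431, 0.145, 0 and 0.166 in the female controls. It was at 15.5 to 49.1 CPM in the uninduced hearts of the sexes and at 328 to 819 in the induced hearts. No grouped library went against its label as control, uninduced or induced. The *Il11* ranges of the weeks overlapped, so they cannot check the label of the week. Of the 2 libraries left out, the one titled control and described as 6 weeks held 511 CPM of *Il11*, and the one titled 6 weeks and described as control held 0.597, values that go against both titles. The summed level of 10 cardiomyocyte markers was 58798 to 71008 CPM in male controls and 38888 to 49701 in males at 6 weeks, and 43745 to 63040.2 and 37536 to 47950.3 in females, where the ranges overlapped. The labels give the tissue as heart, and the study describes it as left ventricular tissue.

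IGF1 and IGF2 are secreted growth factors that signal through the receptor tyrosine kinase IGF1R. IGF2R, the mannose 6-phosphate receptor, takes IGF2 up for breakdown, and the binding proteins hold the ligands outside the cell until proteases release them. IGFBP7 binds IGFs only weakly and is also a matrix and vessel protein. *Igf2* and *H19* are imprinted in opposite directions, *Igf2* being expressed from the paternal copy and the long noncoding RNA *H19* from the maternal copy, under shared enhancers. Both are abundant in the fetus and fall after birth in most mouse tissues. *H19* also carries the hairpin of miR-675.

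In GRCm39 *H19* (chromosome 7, 142129262 to 142133957, minus strand) and *Igf2* (chromosome 7, 142204503 to 142220694, minus strand) lie 70.5 kb apart. Because miR-675 is the product that would act on other transcripts, its 2 mature sequences are shown, from RefSeq on GRCm38.p6 and on the minus strand (chr7:142577112-142577133 and chr7:142577078-142577099), with the seed in capitals. PolyA libraries do not measure them, and the seeds differ.
miR-675-5p: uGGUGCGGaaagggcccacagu
miR-675-3p: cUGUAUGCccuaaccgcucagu

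The promoters of *Igfbp4*, the member with the largest fold change, and *Igfbp7*, the member with the highest level per length in controls, are shown for the 250 bases before the annotated start, also from RefSeq on GRCm38.p6. They lie at chr11:99040994-99041243 on the plus strand and chr5:77408046-77408295 on the minus strand. Capitals mark TATAAA and GGGCGG or its reverse complement.
Igfbp4 promoter: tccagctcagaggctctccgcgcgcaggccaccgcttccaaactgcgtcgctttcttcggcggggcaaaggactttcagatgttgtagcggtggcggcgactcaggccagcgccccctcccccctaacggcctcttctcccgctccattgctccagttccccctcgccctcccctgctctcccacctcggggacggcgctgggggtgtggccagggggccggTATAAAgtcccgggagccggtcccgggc
Igfbp7 promoter: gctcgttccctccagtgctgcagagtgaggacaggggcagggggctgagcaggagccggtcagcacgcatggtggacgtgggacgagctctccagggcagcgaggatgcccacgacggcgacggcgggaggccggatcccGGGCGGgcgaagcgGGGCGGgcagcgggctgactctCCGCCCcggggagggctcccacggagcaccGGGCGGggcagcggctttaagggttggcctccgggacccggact

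The *Igfbp4* window holds TATAAA 28 bases before the start and no GGGCGG, and the *Igfbp7* window holds 4 matches to GGGCGG and no TATAAA. RefSeq gave promoters for 9 of the 10 members, 12 in all with 4 for *Igf2*. TATAAA, read on both strands, was in 2 of the 12 (*Igfbp4* and *Igfbp6*) against 12.4% of all 32851 promoters. GGGCGG was in 5 of the 12 against 32.7%, and TTCNNNGAA, the core of the site that STAT factors recognise, was in none of the 12 against 7.02%. A match is only a match of letters.

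Against control, *Igfbp4*, *H19*, *Igf1*, *Igfbp7* and *Igfbp5* were higher at 1, 3 and 6 weeks in both sexes, while *Igf1r* was not called at any week. Tests were made with limma on log2(CPM + 0.5), a fold change being given on that scale, and a gene was called at a Benjamini-Hochberg adjusted p under 0.05 over all genes tested. SE is the standard error of a log2 value. After 1 week 6 of the 10 members were called in males, where 33.5% of all 16931 genes tested were called, and 5 of them were higher (all genes: 18.9%). After 3 weeks 5 members were called in males, all of them higher (21.3% of all genes called, 13.2% higher), and after 6 weeks 8 were called, 7 of them higher (27.1% and 16.2%). Females had 6 members called at each week, against 28.4% of 16956 genes after 1 week, 31.3% after 3 and 42.7% after 6. Of these 6, 5 were higher after 1 week and all were higher later, where 15.3%, 16.8% and 21.7% of all genes were higher. The 5 genes above and *Igf1r* kept their calls, or lack of one, at all 3 weeks when any 1 library was left out. With the 2 left-out male libraries placed by their descriptions only the call of *Igfbp6* at 6 weeks was lost among these. With both placed by their titles, against which their *Il11* values go, no member was called in males at 3 or 6 weeks and 5 were at 1 week. The share of all genes called with this placement is not given here.

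**Figure D1:**
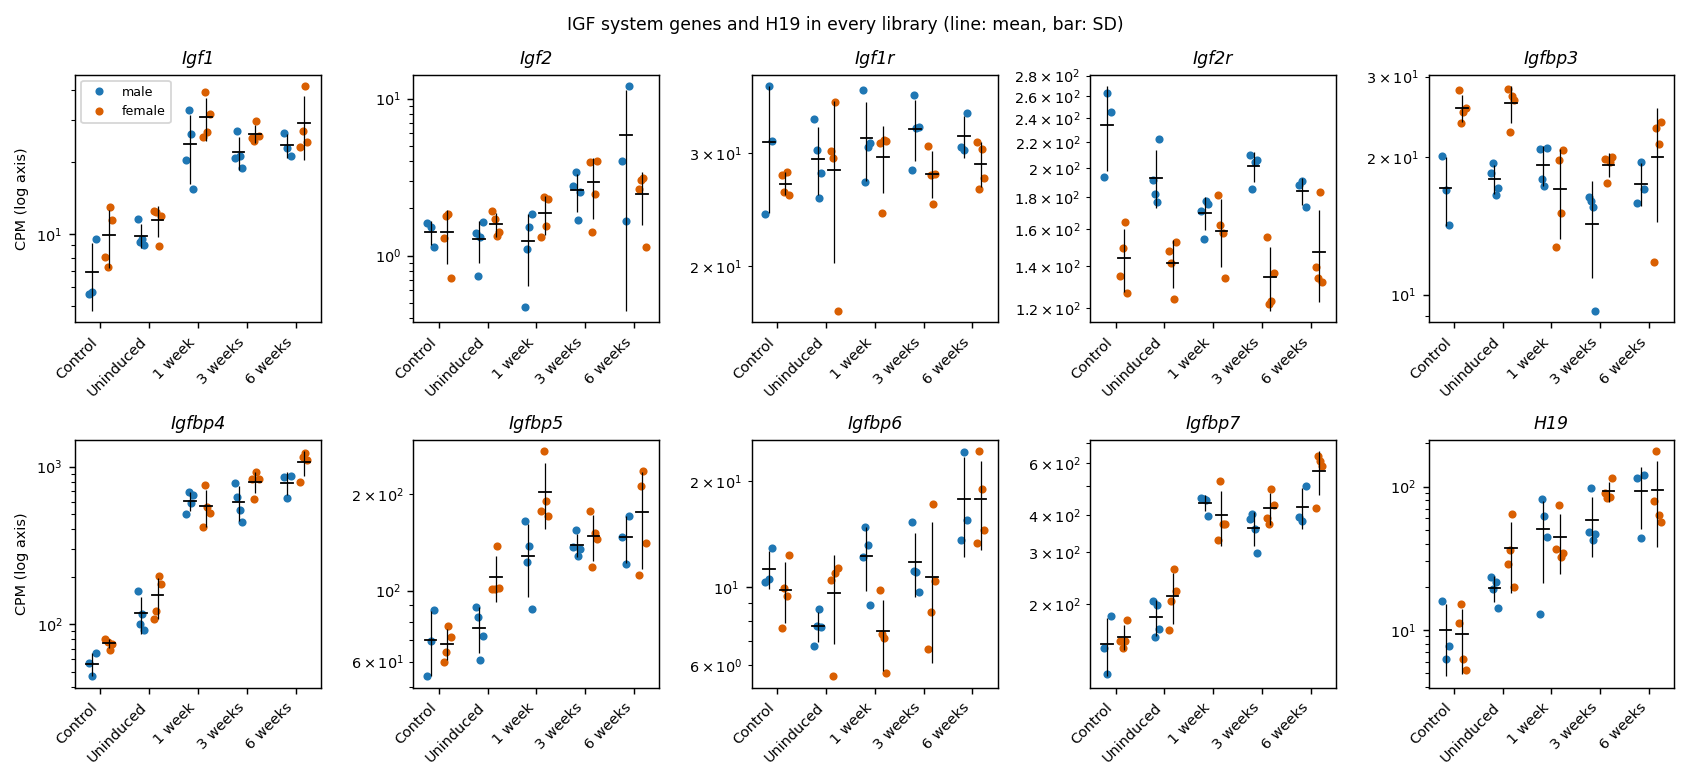
CPM of each member on a log axis in the 5 groups, with males in blue and females in orange. Each point is a library, the line is the mean and the bar the SD. *Igfbp4*, *Igfbp7*, *Igf1* and *Igfbp5* of induced hearts lie above every control of the sex.

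*Igfbp4* encodes a binding protein that holds IGFs until the protease PAPP-A cuts it. Its log2 fold change was the largest among the members at each week in both sexes. Male *Igfbp4* was at 56.9, 46.5 and 65.2 CPM in the 3 controls and at 162, 100.7, 116 and 92.4 in uninduced hearts, and was at 498, 685, 585 and 658 at 1 week, 786, 641, 528 and 443 at 3 weeks and 859, 636 and 870.5 at 6 weeks. Female *Igfbp4* was at 80.99, 76.6, 68.7 and 75.1 CPM in the 4 controls and at 121, 108, 201 and 179 in uninduced hearts, and was at 414, 759, 557 and 505 at 1 week, 833, 626, 923 and 829.5 at 3 weeks and 793, 1143, 1222 and 1103 at 6 weeks. In both sexes the uninduced hearts lay above all controls and below all induced hearts, with no overlap. At 6 weeks the log2 fold change against control was 3.80 in males (SE 0.21, adjusted p = 1.7e-10 from limma) and 3.80 in females (SE 0.19, adjusted p = 6.09e-12), or 13.9 and 13.9 times the control level. It was already 3.42 and 2.85 at 1 week. Relative to uninduced hearts it was 2.76 in males and 2.83 in females at 6 weeks.

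*Igfbp7* was the most abundant member per length in controls. Male *Igfbp7* was at 141, 116 and 181 CPM in the 3 controls and at 205, 154, 198 and 164 in uninduced hearts, and was at 457, 452, 450.1 and 397 at 1 week, 387, 404, 358 and 296 at 3 weeks and 392, 381 and 502 at 6 weeks. Female *Igfbp7* was at 149, 142, 149.6 and 176 CPM in the 4 controls and at 205, 162, 263 and 220.2 in uninduced hearts, and was at 329.9, 522, 371 and 371 at 1 week, 389, 372, 489.6 and 431 at 3 weeks and 421, 631, 609 and 588 at 6 weeks. All induced hearts lay above all controls and all uninduced hearts of the sex, while uninduced and control hearts overlapped. Male log2 fold changes were 1.61, 1.32 and 1.55 at 1, 3 and 6 weeks (SE 0.16 at 6 weeks, adjusted p = 7.37e-07 from limma). Those of females were 1.35, 1.44 and 1.85 (SE 0.16, adjusted p = 9.49e-09). *Polr2b*, on the other strand, overlaps *Igfbp7*, and reads on them cannot be told apart if the counting ignored strand, which the sources used here do not give.

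*Igfbp5*, a binding protein that also attaches to matrix, was higher than in controls at each week in both sexes. Male *Igfbp5* was at 54.2, 69.5 and 86.8 CPM in the 3 controls and at 88.9, 82.9, 60.7 and 72.3 in uninduced hearts, and was at 166, 123, 138 and 87.3 at 1 week, 137, 155, 128 and 135 at 3 weeks and 147, 122 and 171 at 6 weeks. Female *Igfbp5* was at 59.8, 64.5, 77.3 and 71.7 CPM in the 4 controls and at 101.3, 100.9, 137 and 102 in uninduced hearts, and was at 177, 273, 191 and 171 at 1 week, 177, 118, 151 and 145 at 3 weeks and 112, 213, 237 and 141 at 6 weeks. Every induced heart exceeded every control of its sex, although the lowest male at 1 week did so by less than 1 CPM. In females the uninduced hearts also lay above the controls, by a log2 value of 0.68 that was not called (adjusted p = 0.0697 from limma). The log2 fold change at 6 weeks was 1.07 in males (SE 0.20, adjusted p = 0.000545) and 1.30 in females (SE 0.20, adjusted p = 2.46e-05).

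*Igfbp6*, whose protein prefers IGF2, was called against control only at 6 weeks. Male *Igfbp6* was at 10.3, 10.6 and 12.9 CPM in the 3 controls and at 6.79, 7.77, 8.66 and 7.70 in uninduced hearts, and was at 12.2, 14.8, 13.2 and 8.88 at 1 week, 15.3, 11.1, 11.01 and 9.68 at 3 weeks and 13.6, 24.1 and 15.5 at 6 weeks. Female *Igfbp6* was at 7.62, 9.92, 9.41 and 12.3 CPM in the 4 controls and at 5.57, 10.5, 10.98 and 11.3 in uninduced hearts, and was at 9.78, 7.33, 7.15 and 5.68 at 1 week, 6.66, 8.47, 17.2 and 10.4 at 3 weeks and 13.3, 24.3, 18.9 and 14.5 at 6 weeks. At 6 weeks all grouped hearts of both sexes lay above the controls, whereas the 1-week and 3-week hearts overlapped them. The left-out male library described as 6 weeks held 8.33 CPM, below all male controls, and the one described as control held 17.3. With both placed by their descriptions the male log2 value at 6 weeks against control was 0.19 and not called (adjusted p = 0.557 from limma). Against control *Igfbp6* at 6 weeks stood at a log2 value of 0.60 in males (SE 0.21, adjusted p = 0.0371 from limma) and 0.80 in females (SE 0.26, adjusted p = 0.0164). Each call was ended by leaving out 1 of several libraries. In males the adjusted p rose to 0.194 without replicate 3 at 6 weeks, to 0.106 without control replicate 1 and to 0.114 without control replicate 3. For females the adjusted p rose to 0.069 without replicate 2 at 6 weeks and to 0.0542 without control replicate 1.

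*Igfbp3*, the main carrier of IGFs in blood, was the only binding protein among the members with a call in the lower direction. Female *Igfbp3* was at 27.99, 23.8, 25.2 and 25.7 CPM in the 4 controls and at 22.7, 28.2, 27.2 and 26.7 in uninduced hearts, and was at 12.7, 19.7, 15.1 and 20.7 at 1 week, 19.8, 17.5, 19.5 and 20.04 at 3 weeks and 11.8, 23.1, 21.3 and 23.8 at 6 weeks. All female hearts at 1 and 3 weeks lay below all female controls. The log2 value of -0.60 at 1 week was called (SE 0.17, adjusted p = 0.0129 from limma), but not without replicate 1 at 1 week (adjusted p = 0.0556). The values of -0.41 at 3 weeks (adjusted p = 0.0811) and -0.40 at 6 weeks (adjusted p = 0.0695) were not called. In males the 18 libraries ran from 9.20 to 20.9 CPM, and every group of transgenic hearts overlapped the controls. Males at 3 weeks, at 9.20 to 16.4, lay below all uninduced males (16.5 to 19.4) and all males at 1 week (17.3 to 20.9). Neither of these differences was called. The male log2 difference from control was 0.17, -0.27 and 0.04 at 1, 3 and 6 weeks, none called.

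*Igf1*, the ligand made mostly in the liver and also by cells of many tissues, was higher at every week. Male *Igf1* was at 5.66, 5.76 and 9.52 CPM in the 3 controls and at 11.5, 9.28, 9.58 and 9.07 in uninduced hearts, and was at 20.4, 33.2, 26.3 and 15.5 at 1 week, 20.8, 26.98, 21.2 and 18.9 at 3 weeks and 26.5, 22.99 and 21.2 at 6 weeks. Female *Igf1* was at 8.05, 7.31, 13.01 and 11.5 CPM in the 4 controls and at 12.4, 12.5, 8.95 and 11.9 in uninduced hearts, and was at 25.6, 39.5, 26.7 and 31.7 at 1 week, 25.3, 24.5, 29.6 and 25.9 at 3 weeks and 23.1, 26.98, 41.7 and 24.4 at 6 weeks. Each induced heart exceeded each control and each uninduced heart of its sex. In males the log2 fold changes were 1.69, 1.61 and 1.72 at 1, 3 and 6 weeks (SE 0.22 at 6 weeks, adjusted p = 1e-05 from limma). Females showed 1.60, 1.39 and 1.50 (SE 0.19, adjusted p = 2.49e-06). The levels at 1 and 6 weeks did not differ by a called amount, with a log2 difference between these weeks of 0.03 in males (95% confidence interval -0.41 to 0.47) and -0.11 in females (-0.50 to 0.29).

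*Igf2* was the member with the lowest level, resting on 14 to 517 reads per male library and 13 to 136 per female library. The protein-coding *Gm49394* overlaps *Igf2* on the same strand and is not listed for either sex. How reads on both were counted is not given, so the *Igf2* level may be understated. Male *Igf2* was at 1.61, 1.51 and 1.14 CPM in the 3 controls and at 1.40, 0.741, 1.32 and 1.65 in uninduced hearts, and was at 0.469, 1.11, 1.53 and 1.84 at 1 week, 2.78, 3.41, 1.68 and 2.54 at 3 weeks and 3.98, 1.66 and 12.1 at 6 weeks. Female *Igf2* was at 1.29, 1.79, 1.85 and 0.721 CPM in the 4 controls and at 1.71, 1.94, 1.32 and 1.42 in uninduced hearts, and was at 1.32, 2.34, 1.55 and 2.30 at 1 week, 3.94, 1.41, 2.46 and 4.00 at 3 weeks and 2.66, 3.01, 3.13 and 1.14 at 6 weeks. The male controls and uninduced hearts all lay under 1.7 CPM, all 4 males at 3 weeks lay above them, and at 6 weeks 1 male stood at 12.1 while another, at 1.66, lay just above the highest control. The log2 fold change in males at 6 weeks was 1.37 (SE 0.43, adjusted p = 0.0236 from limma). Without the male of the highest value it was 0.70 (adjusted p = 0.157), and the call was also lost without control replicate 3 (0.0558) or control replicate 4 (0.0741). In females the call came at 3 weeks, with a log2 fold change of 0.81 (SE 0.28, adjusted p = 0.0334), although 1 of the 4 libraries lay inside the control range. At 6 weeks it was 0.62 and not called (adjusted p = 0.0828). The female call at 3 weeks was lost on leaving out control replicate 1 or 4 or 3-week replicate 1, 3 or 4, with an adjusted p of 0.0511 to 0.125, and a call at 6 weeks appeared without 6-week replicate 4 (adjusted p = 0.0143).

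*H19* was higher than in controls at each week in both sexes, with a wide spread between hearts. Male *H19* was at 15.9, 6.21 and 7.72 CPM in the 3 controls and at 23.5, 19.4, 21.5 and 14.2 in uninduced hearts, and was at 12.99, 81.7, 62.4 and 44.5 at 1 week, 47.9, 97.6, 42.2 and 46.4 at 3 weeks and 116, 43.99 and 121 at 6 weeks. Female *H19* was at 11.1, 15.05, 6.25 and 5.27 CPM in the 4 controls and at 36.2, 28.9, 64.6 and 20.03 in uninduced hearts, and was at 36.5, 73.95, 32.1 and 34.6 at 1 week, 89.7, 83.4, 84.2 and 115 at 3 weeks and 79.4, 177, 63.4 and 56.4 at 6 weeks. All induced hearts lay above all controls of their sex, except 1 male at 1 week that lay inside the control range. Against control, male *H19* had log2 values of 2.12, 2.52 and 3.14 after 1, 3 and 6 weeks (SE 0.51 for the last, adjusted p = 0.000125 from limma). Female *H19* had 2.20, 3.34 and 3.21 (SE 0.37 for the last, adjusted p = 8.48e-07). Relative to uninduced hearts the differences were smaller. In males these were 1.09 (not called, adjusted p = 0.0958), 1.49 and 2.11 at 1, 3 and 6 weeks, and in females 0.28 (not called, adjusted p = 0.699), 1.42 and 1.29. The male value at 1 week was 1.36 and called with edgeR on the recovered reads (adjusted p = 0.0346), as it was with limma without the low male at 1 week (1.64, adjusted p = 0.00424).

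**Figure D2:**
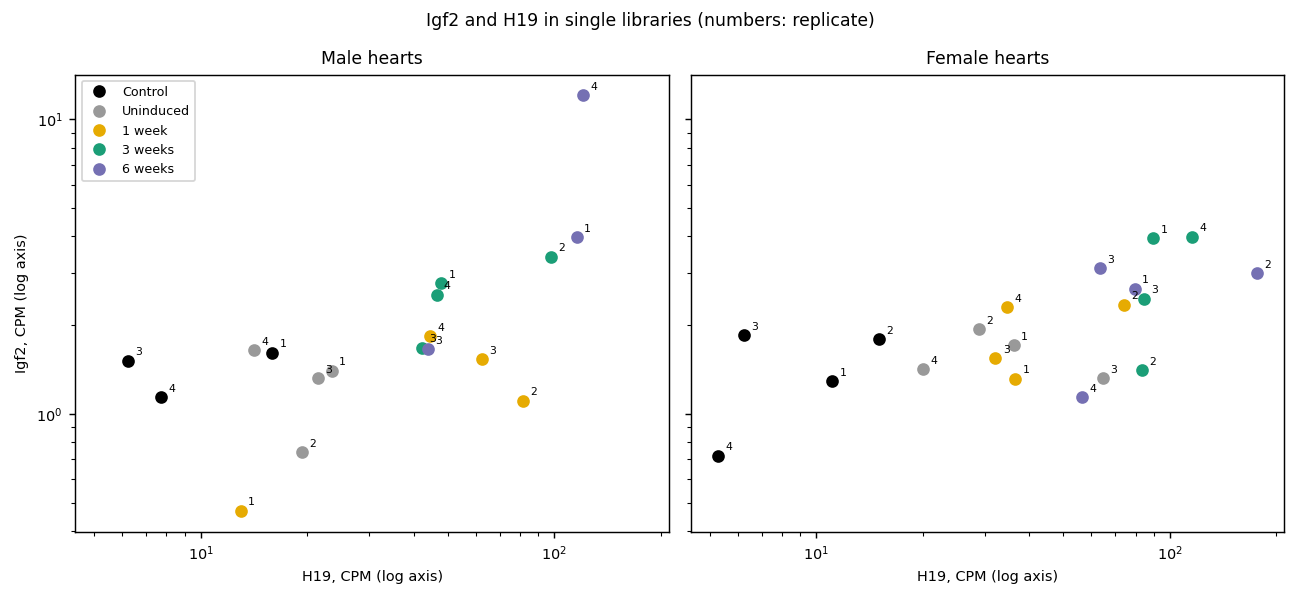
*Igf2* against *H19* in CPM, both axes log, with males on the left and females on the right, 1 point per library coloured by group and numbered by replicate. Controls sit at the lower left, the male with 12.1 CPM of *Igf2* at 6 weeks also holds the highest male *H19* value, and 3 of the 4 males at 1 week hold *H19* above every control with *Igf2* at 1.11 to 1.84 CPM.

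The neighbours *Igf2* and *H19* did not move alike at all weeks. In males at 1 week *H19* was called, while the log2 difference of *Igf2* was -0.21 (95% confidence interval -1.06 to 0.63). In females at 1 week *Igf2* was at 0.33 (-0.26 to 0.92), also not called. Over all grouped libraries Pearson's r between their log2 values was 0.652 in males and 0.638 in females (n = 18 and 20). With the mean of each group taken off it was 0.604 in males and 0.381 in females. These are descriptions, since the points share groups and library scaling. The 5 genes whose log2 values ran most like *H19*, by the lower r of the sexes, were *Plvap* (r 0.918 in males and 0.914 in females), *Smoc1*, *Pafah1b3*, *Plagl1* (0.940 in males and 0.882 in females) and *Os9*. For *Igf2* they were *Lgi4* (0.820 in males and 0.820 in females), *Abhd2*, *Slc29a3*, *Glis2* and *Dagla*. With the group means taken off they were *Npr3* (0.763 in males and 0.825 in females), *Smoc1*, *Pafah1b3*, *Pdap1* and *Rpl31-ps17* for *H19*, and *Eng* (0.775 in males and 0.715 in females), *Zmiz2*, *Smg6*, *Neurl1b* and *Tmem184b* for *Igf2*. For *Igf1* they were *Col1a1* (0.961 in males and 0.960 in females) and *Col1a2*, chains of collagen I, followed by *Mmp9*, *Cercam* and *Lum*.

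Of the receptors, *Igf1r*, which carries the growth signal of both ligands, was not called in any comparison. In males the 18 libraries held 24.1 to 38.1 CPM and in females the 20 libraries held 16.99 to 36.0, with overlap between all groups and controls. The log2 difference from control at 6 weeks was 0.05 in males (95% confidence interval -0.27 to 0.38) and 0.10 in females (-0.22 to 0.42). Male *Igf2r* was at 194, 263 and 245 CPM in the 3 controls and at 191, 182, 177 and 222 in uninduced hearts, and was at 171, 155, 177 and 176 at 1 week, 209.5, 185, 205 and 206 at 3 weeks and 188, 190.5 and 173 at 6 weeks. All males at 1 and 6 weeks lay below all male controls. Its log2 difference from control was -0.45 at 1 week (SE 0.11, adjusted p = 0.00419 from limma), -0.21 at 3 weeks (not called, adjusted p = 0.214) and -0.34 at 6 weeks (adjusted p = 0.0431). The call at 6 weeks was lost on leaving out any of 5 libraries (all 3 of the 6-week group, and control replicates 3 and 4), with an adjusted p of 0.0552 to 0.208, and a call at 3 weeks appeared without control replicate 1 (adjusted p = 0.0488). Uninduced males also lay lower, at -0.27, without a call (adjusted p = 0.403). In females *Igf2r* ran from 122 to 183 CPM with overlapping groups and a log2 difference of 0.02 at 6 weeks (-0.22 to 0.27). The noncoding RNA *Airn* overlaps *Igf2r* and the gene *Pgpep1l* overlaps *Igf1r*, each on the other strand, with the limit given for *Igfbp7*.

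**Figure D3:**
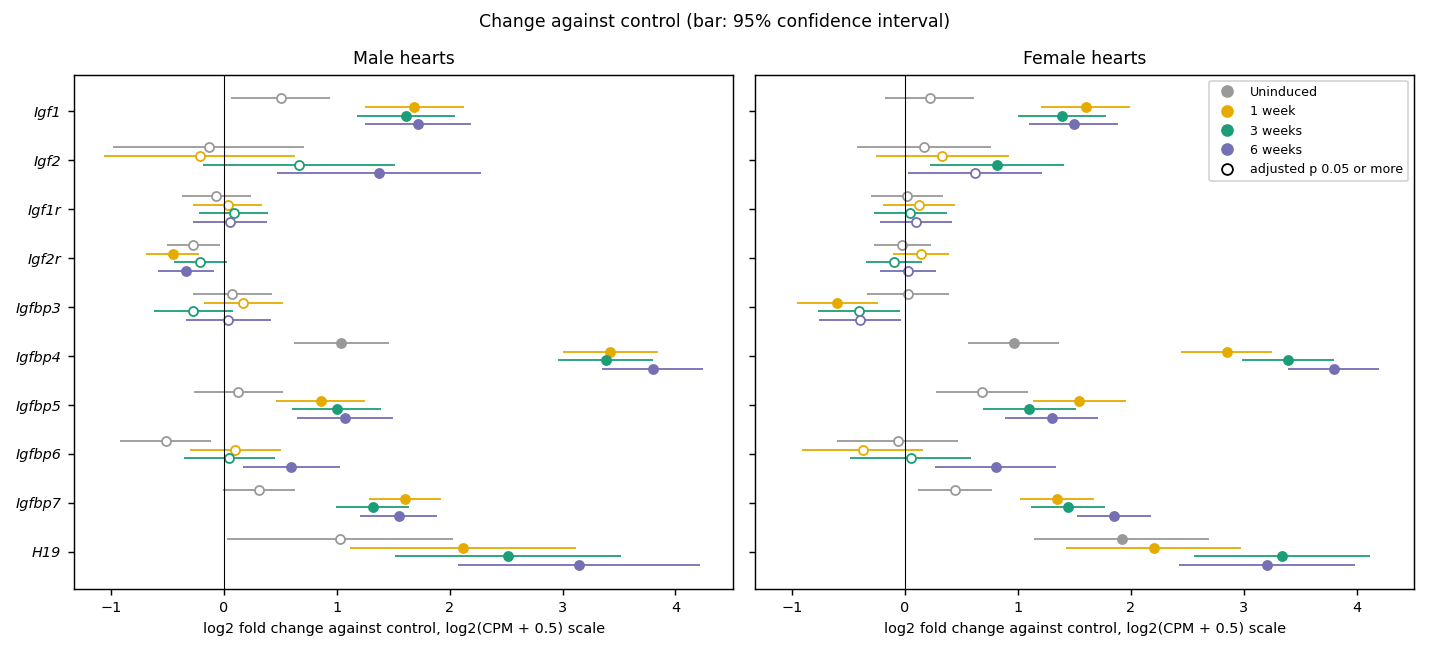
Log2 fold change of each member against control, on log2(CPM + 0.5), in males (left) and females (right). Points are uninduced hearts and hearts at 1, 3 and 6 weeks, filled where the adjusted p is under 0.05, and bars are 95% confidence intervals. *Igfbp4* lies between 2.85 and 3.80 after induction, and *Igf1r* lies at 0 within its bars.

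Without tamoxifen, CM-Il11-Tg hearts already differed from controls in *Igfbp4* and, in females, in *H19*. Their mean *Il11* was 19.6 CPM in males and 26.8 in females, against 0.0867 and 0.0886 in controls. Among males 1 of the 10 members was called, where 0.597% of all genes were, and in females 2 were, where 2.87% were. With a log2 fold change of 1 or more also required, 1 member was called in each sex (all genes: 0.384% in males and 0.773% in females). The log2 value of *Igfbp4* was 1.04 in males (SE 0.20, adjusted p = 0.0148 from limma) and 0.96 in females (SE 0.19, adjusted p = 0.0065). All uninduced hearts lay above all controls in both sexes. The male call was lost without control replicate 1 (adjusted p = 0.0727), control replicate 3 (0.164) or uninduced replicate 1 (0.0699). *H19* was at a log2 value of 1.92 in females (SE 0.37, adjusted p = 0.00498), with no overlap, and at 1.03 in males (adjusted p = 0.462), where 1 uninduced heart lay inside the control range. Male *Igfbp6* was lower in all uninduced hearts than in all controls, at -0.51, without a call (adjusted p = 0.332).

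Uninduced hearts carry the same transgenes and held *Il11* at a lower level than induced hearts. Against them *Igfbp4*, *Igf1* and *Igfbp7* were called at every week in both sexes. Males had 5, 6 and 7 of the 10 members called after 1, 3 and 6 weeks, against 18.8%, 16.1% and 20.4% of all genes, and all of these were higher (all genes: 12.1%, 10.6% and 13%). Females had 5, 4 and 6 called, against 12.6%, 16.7% and 22.8%, all higher (all genes: 8.32%, 10.6% and 13.7%) but *Igfbp3* after 1 week, at -0.63. With a log2 fold change of 1 or more also required, 3 members in males and 2 in females were called after 1 week (all genes: 4.23% and 3.07%). *Igfbp6* was called in males at every week in this comparison, at 0.61, 0.56 and 1.11, and in females only at 6 weeks, at 0.87. *Igf2* was called in males at 6 weeks, at 1.51 (adjusted p = 0.012 from limma), and not without 6-week replicate 4 (0.84, adjusted p = 0.104). The calls of *Igf1*, *Igfbp4* and *Igfbp7* against uninduced hearts held when any 1 library was left out, as did those of *Igfbp5* in males at all 3 weeks and in females at 1 week, and of *H19* and *Igfbp6* in males at 6 weeks.

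The other calls against uninduced hearts were lost when single libraries were left out. *Igfbp6* in males at 1 week lost its call without uninduced replicate 1 or 1-week replicate 2 or 3 (adjusted p from limma 0.0565 to 0.0771). In males at 3 weeks it did so without uninduced replicate 1, 2 or 4 or 3-week replicate 1, 2 or 3 (0.0578 to 0.128). In females at 6 weeks it did so without uninduced replicate 1 (0.0836) or 6-week replicate 2 (0.0795). *H19* lost its call in males at 3 weeks without uninduced replicate 2 or 4 or 3-week replicate 2 (0.059 to 0.0968). Its female calls were lost at 3 weeks without uninduced replicate 4 (0.0504) and at 6 weeks without uninduced replicate 4 (0.0539) or 6-week replicate 2 (0.0784). *Igfbp5* in females at 6 weeks, at 0.62 (adjusted p = 0.0279), lost its call without uninduced replicate 1, 2 or 4 or 6-week replicate 2 or 3 (0.0535 to 0.11). *Igfbp3* in females at 1 week lost its call without uninduced replicate 2 or 1-week replicate 1 or 3 (0.0588 to 0.0776). Calls were gained in females for *Igf2* at 3 weeks without 3-week replicate 2 (0.03) and for *Igfbp3* at 6 weeks without 6-week replicate 4 (0.0472).

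Between the weeks few members differed. Among males no member was called by limma or edgeR in any of the 3 comparisons, where 0.0177%, 0.165% and 0% of all genes were (3 weeks against 1, 6 against 1 and 6 against 3), and 3, 3 and 1 members had an unadjusted p under 0.05 in limma. In females 2 were called for 6 weeks against 1 week, where 1.03% of all genes were, and 1 with a log2 fold change of 1 or more also required (all genes: 0.49%). *Igfbp4* was higher by 0.95 (SE 0.19, adjusted p = 0.0155), and *Igfbp6* by 1.18 (SE 0.26, adjusted p = 0.0231). Leaving out 1-week replicate 4 or 6-week replicate 2 or 3 ended both calls, as did 1-week replicate 1 for *Igfbp4* and 1-week replicate 3 for *Igfbp6*, with an adjusted p of 0.0617 to 0.118. In the other 2 female comparisons no member was called (0.218% and 0% of all genes), with 3 and 2 at an unadjusted p under 0.05. The counts at an unadjusted p between weeks are given without the share of all genes and say nothing particular to the members. *H19* at 6 weeks stood 1.02 above 1 week in males and 1.01 in females, neither called (95% confidence intervals 0.02 to 2.02 and 0.23 to 1.78).

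The change against control was also compared between the sexes, in a joint limma fit over 16627 genes. No gene was called at any of the 4 contrasts (0% of those tested), with 862 genes at an unadjusted p under 0.05 for the uninduced hearts and 2908, 691 and 2886 at 1, 3 and 6 weeks. Of the 40 values of the members, 4 had an unadjusted p under 0.05. The lowest adjusted p was that of *Igf2r* at 1 week, with a male minus female difference of -0.59 (95% confidence interval -0.93 to -0.26, adjusted p = 0.0669 from limma). *Igfbp3* at 1 week followed, at 0.77 (0.26 to 1.28, adjusted p = 0.102). For *Igf2* at 6 weeks the difference was 0.75 (-0.33 to 1.84) and for *Igfbp4* 0.00 (-0.62 to 0.62).

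Levels of different genes were set side by side as mean CPM per kb of exon. In male controls the order was *Igfbp7* (26.8), *Igf2r* (24.96), *Igfbp4* (12.7), *Igfbp5* (11.7), *Igfbp6*, *Igfbp3*, *H19* (3.49), *Igf1r*, *Igf1* (0.682) and *Igf2* (0.231). At 6 weeks it was *Igfbp4* (178), *Igfbp7* (78.01), *H19* (32.8), *Igfbp5* (24.4), *Igf2r* (19.6), *Igfbp6*, *Igfbp3*, *Igf1* (2.30), *Igf1r* and *Igf2* (0.957). *Igfbp4* thus moved to the first place and *H19* from the seventh to the third. The female order at 6 weeks was identical, with *Igfbp4* at 241 (179 to 276 over the 4 hearts), *Igfbp7* at 103 and *H19* at 32.99. In female controls *Igfbp4* (17.04) and *Igf2r* (15.4) stood the other way round from males and their ranges overlapped, as did those of *Igfbp3* and *Igfbp6*, which were also in reverse order. In male controls the ranges overlapped between *Igfbp7* and *Igf2r*, *Igfbp4* and *Igfbp5*, *Igfbp5* and *Igfbp6*, and *Igfbp3* and *H19*. At 6 weeks they overlapped between *H19* and *Igfbp5* and between *Igfbp5* and *Igf2r* in both sexes, between *Igf1r* and *Igf2* in males, and in females also between *Igf2r* and *Igfbp6* and between *Igfbp3* and *Igf1*. The other neighbours in these orders did not overlap. The exon length counts every annotated exon, so genes with long rarely used exons are understated.

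**Figure D4:**
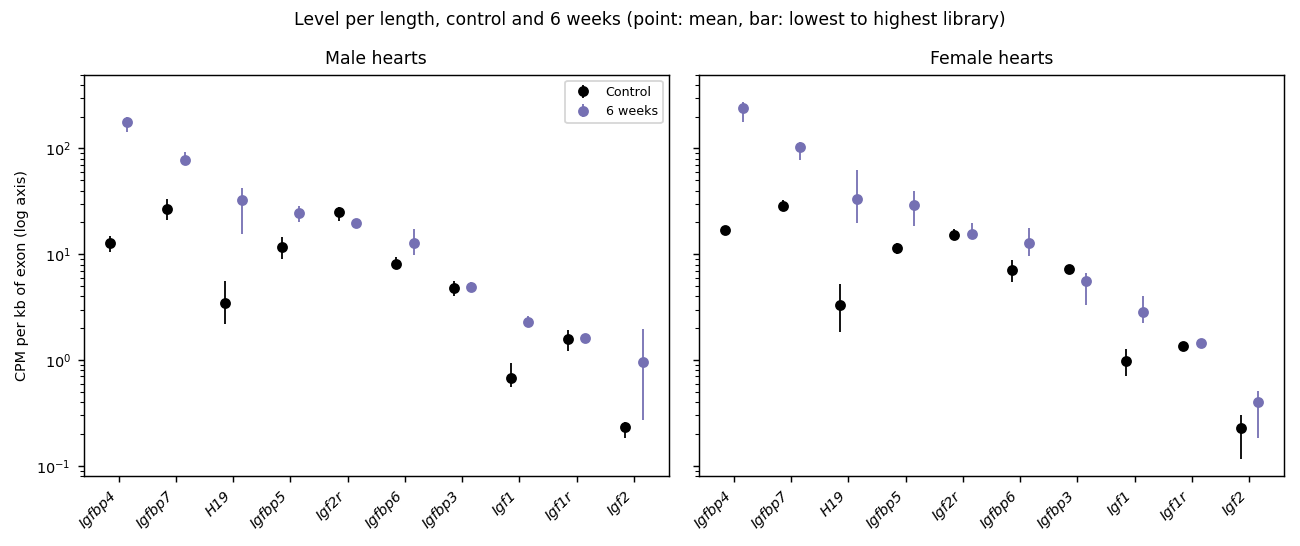
Mean CPM per kb of exon on a log axis for each member in controls (black) and at 6 weeks (purple), males left and females right, ordered by the level at 6 weeks. Bars run from the lowest to the highest library. The step from black to purple is widest for *Igfbp4* and *H19* and small for *Igf1r*.

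The other genes of the pathway were taken from lists drawn up by function and compared with control at 6 weeks, when 16.2% of all genes tested were called higher and 10.9% lower in males, and 21.7% and 21% in females. Of the IGFBP proteases and their inhibitors, 4 of 7 tested genes were called higher and 2 lower in males, and 5 of 8 higher and 1 lower in females (85.7% and 75.00% of the list against 27.1% and 42.7% of all genes called), with a median log2 value of 1.32 and 1.52 against -0.01 and -0.02 over all genes. *Mmp3* and *Mmp9*, matrix metalloproteases that can also cut binding proteins, rose by log2 values of 6.78 and 4.81 in males and 7.45 and 4.68 in females. *Mmp3* went from 1.42 ± 0.633 CPM (SD, n = 3) to 203 ± 18.4 (SD, n = 3) in males. *Pappa*, which encodes the protease of IGFBP4, rose by a log2 value of 1.32 in males (SE 0.23, adjusted p = 0.000287 from limma) and 2.04 in females (SE 0.26, adjusted p = 2.27e-06). *Stc2*, whose product inhibits that protease, was lower, at log2 values of -0.95 and -1.58. *Adam12*, a protease of IGFBP3 and IGFBP5, was at 2.12 and 2.55, called in both. *Igfals*, which holds IGF in a larger complex with IGFBP3 or IGFBP5 in blood, was at -0.92 and -0.84, both called (adjusted p = 0.0457 and 0.0409 from limma). Calls of genes of the lists that are not members were not checked by leaving out single libraries.

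Downstream of the receptors, 2 of 21 signalling genes were called higher and 5 lower in males, and 1 higher and 10 lower in females (33.3% and 52.4% of the list against 27.1% and 42.7% of all genes called), with a median log2 value of -0.32 and -0.19. The genes called in both sexes were *Irs1*, *Tsc1*, *Grb14*, *Pik3ca* and *Pik3cb*, lower, and *Shc1*, higher. In females *Grb14*, *Pik3ca* and *Pik3cb* were close to the threshold (adjusted p = 0.0471, 0.0455 and 0.0434 from limma). *Irs1*, the docking protein that links IGF1R and the insulin receptor to PI3K, went from 14.3 ± 2.55 CPM (SD, n = 3) in male controls to 4.50 ± 0.262 (SD, n = 3) at 6 weeks. Female controls held 8.73 ± 2.41 CPM and females at 6 weeks 3.379 ± 0.825 (SD, 4 hearts each). Its log2 values were -1.55 (adjusted p = 1.26e-05 from limma) and -1.24 (adjusted p = 0.00999). Of the 6 genes of the growth hormone axis, none was called in males (limma) and 1 was called higher and 3 lower in females (0% and 66.7% of the list, against 27.1% and 42.7% of all genes). *Ghr*, the growth hormone receptor, was at -0.22 and -0.19, neither called, and *Socs2*, a target of that axis, at -0.06 (not called) and -0.58 (called). *Insr*, the insulin receptor, was at -0.18 and -0.24, neither called.

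*H19* and *Igf2* also belong to a group of imprinted growth genes. Of its 19 tested genes, members included, 9 were called higher and 4 lower in males at 6 weeks and 6 higher and 4 lower in females (68.4% and 52.6% of the list against 27.1% and 42.7% of all genes called). *Plagl1*, a zinc finger factor known to bind the *Igf2* and *H19* locus, rose from 4.16 ± 0.924 CPM (SD, 3 hearts) to 19.3 ± 7.77 (SD, 3 hearts) in males. Female controls held 6.03 ± 1.08 CPM of it and females at 6 weeks 18.2 ± 3.71 (SD, 4 hearts each). The log2 values were 2.03 and 1.51. *Dlk1*, a fetal growth gene, was near the bottom of the scale in controls, at 0.132 ± 0.0975 in males, and at 2.72 ± 1.99 at 6 weeks, with log2 values of 2.12 and 1.37, both called. *Gatm* and *Ndn* were also called higher in both sexes. *Cdkn1c*, a cell cycle inhibitor, and *Mest* went the other way, at -1.20 and -1.18 in males and -1.45 and -0.96 in females, all called. *Meg3*, the noncoding neighbour of *Dlk1*, was called in males only, at 1.71 against -0.64 in females, and the joint fit of both sexes called no gene. Of 6 tested genes that bind *Igf2* mRNA or flank *H19*, *Lsp1* was the only gene called, at 0.63 and 0.46. Of all genes, 27.1% were called in males and 42.7% in females, so this count does not set the list apart. *Igf2bp2* was at 0.26 and 0.51.

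**Figure D5:**
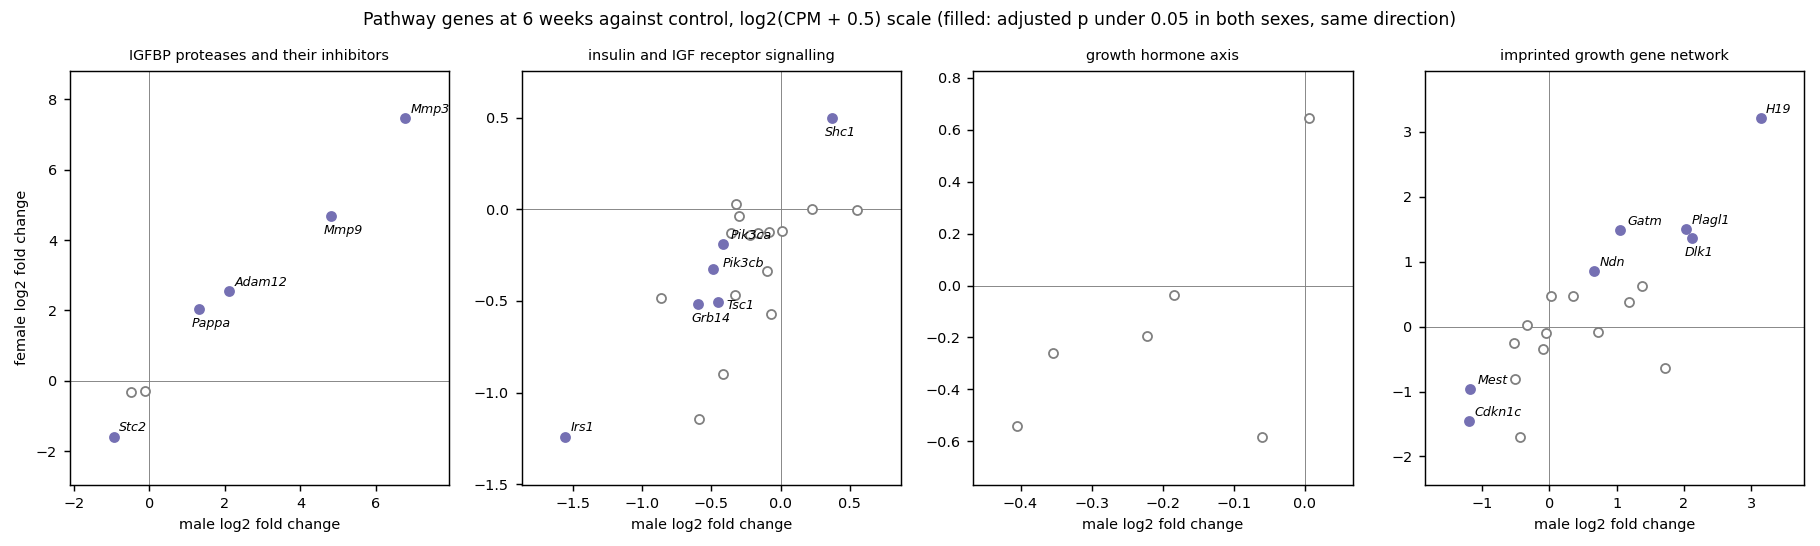
Log2 fold change at 6 weeks against control in males (x axis) and females (y axis) for the genes of 4 pathway lists, 1 panel per list. Filled points are called in both sexes with the same sign. *Mmp3* and *Mmp9* lie far above 0, *Stc2*, *Irs1*, *Cdkn1c* and *Mest* below, and the growth hormone axis holds no filled point.

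Markers of cell types moved in the same hearts. In bulk tissue more cells of a type and more RNA per cell cannot be told apart. Of 11 fibroblast markers, 9 were called higher and 1 lower at 6 weeks in each sex, where 16.2% of all genes in males and 21.7% in females were higher. Their summed level in males was 1612 to 2109 CPM in controls, 2239 to 2941 in uninduced hearts and 7996 to 10842, 5528 to 8313 and 5956 to 7756 at 1, 3 and 6 weeks. Among females the ranges were 2147 to 2519, 2603 to 3444, 6730.0 to 11917, 5855 to 8802 and 7932 to 13249. These sums separated induced from other hearts as *Igf1*, *Igfbp4* and *Igfbp7* did, and their part in these results was not tested.

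Of 10 macrophage markers, 9 in males and 10 in females were called higher at 6 weeks (all genes: 16.2% and 21.7%). In females all 10 were also called higher in uninduced hearts (all genes: 2.41%). Their sum was 268 to 453 CPM in male controls, 387 to 577 in uninduced males and 1023 to 1539 in males at 6 weeks. Among females it was 251 to 314, 449 to 622 and 1259 to 1428 in the same groups. *Igfbp4* and the fibroblast sums had this order without overlap in both sexes, while the macrophage sums of control and uninduced males overlapped. Endothelial markers went the other way, with 0 of 9 called higher and 5 (males) or 6 (females) lower at 6 weeks by limma (all genes lower: 10.9% and 21%) and a sum of 1380.0 to 1651 in male controls against 989 to 1201 at 6 weeks. Mesothelial markers summed to 6.15 to 11.5 CPM in female controls and 18.6 to 114 in females at 6 weeks, with 9 of 10 called higher (all genes: 21.7%). In males they summed to 7.16 to 8.71 and 7.93 to 37.7, with 2 of 9 called (all genes called: 27.1%).

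The 5 listed markers of valve and cartilage-like interstitium summed to 17.8 to 24.8 CPM in male controls and 357 to 489 at 6 weeks, and to 19.95 to 26.5 and 255 to 778 in females. Of the 5, *Prg4*, which encodes lubricin, had log2 values of 4.88 and 5.25 and *Sox9* was also called higher in both sexes, while the median of the list was -0.31 in males and 0.77 in females and *Col2a1*, a defining cartilage gene, is not listed. The male call of *Sox9* was close to the threshold (adjusted p = 0.0496 from limma). Lymphoid markers summed to 5.66 to 14.1 CPM in male controls and 22.8 to 37.5 at 6 weeks, with 3 of 8 called higher (all genes: 16.2%). In females they summed to 7.65 to 13.1 and 31.9 to 87.5, with 6 of 10 called higher (all genes: 21.7%). Pericyte and smooth muscle markers were lower in sum, at 1153 to 1435 in male controls against 739.7 to 859.8 at 6 weeks and 1110.2 to 1308 against 777 to 1079 in females. Of the 9, 2 were called lower in each sex (all genes lower: 10.9% in males and 21% in females). Activated fibroblast markers summed to 54.04 to 125 and 202 to 383 in males and 59.04 to 82.2 and 330.1 to 801 in females. Of 6 atrial cardiomyocyte markers, 3 were listed in males and 4 in females. They summed to 17.04 to 63.1 CPM in male controls and 67.6 to 182 at 6 weeks. In females they summed to 41.2 to 80.4 and 82.2 to 1630, with a median of 157 at 6 weeks. Erythroid markers of controls and 6-week hearts summed to 1697 to 7903 and 2370 to 15968 in males. In females the ranges were 1396 to 2326 and 468 to 2701. The part of these cell types in the members' changes was not tested.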

How the data were processed

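PolyA RNA-seq of 40 mouse hearts was used, each library being 1 mouse. Per the study's methods the authors used STAR with GRCm39 and counted genes with featureCounts. They deposited 1 table of CPM values per sex. These deposited signal values are not exact CPM, since columns summed to 817395 to 1196278, and whole reads could be recovered from them (100% of values within 0.001 of a multiple of a library's smallest unit). The authors' filter on genes of few reads and the strand setting are not given in the sources used here. Every value column was matched to a sample (0 were not). Groups came from the labels, which name no batch, and 2 male libraries whose title and description disagree entered no test.

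Tests used limma 3.58.1 in R 4.3.3, with a trend of variance on mean, on log2(CPM + 0.5). Each sex was fitted separately with its 5 groups, over genes at 0.5 or more in at least 3 libraries (16931 for males, 16956 for females), and Benjamini-Hochberg adjustment ran over all of them. The sexes were compared in a joint fit over 16627 genes. The limma fit within a sex was tested on simulated data with known changes, in a single comparison. The joint fit, edgeR and the fit with replicate number as a block were not tested in this way. Alternatives were pseudocounts of 0.1 and 2, no filter, median-of-ratios scaling, edgeR 4.0.16 (quasi-likelihood) on recovered reads, a log2 fold minimum of 1, replicate number as a block, either placement of the 2 libraries, and leaving out each library.

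The text names all members, genes of the pathway lists called in both sexes at 6 weeks in 1 direction, and the 5 genes most like *Igf1*, *Igf2* and *H19* by the lower r of the sexes. *Igf2bp2*, *Ghr*, *Insr*, *Socs2* and *Meg3* were named after their values were seen. From the signalling list 1 gene is not reported here. Members and lists were chosen with earlier results of these data known. Positions are from GENCODE on GRCm39 and sequences from RefSeq on GRCm38.p6, where no promoter of *H19* and no protein sequence was used here. All 54 pairs of replicates differed beyond counting noise (lowest chi-square per gene 7.08). Same-numbered replicates did not deviate together, with a mean residual correlation of 0.0132 for males and 0.0255 for females.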

Additional observations from a re-analysis of the deposited data

Results flagged for a closer look

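In 9 of the 80 groups of 4 hearts examined (10 members, 8 groups), the highest or lowest library stood apart from the other 3 by Dixon's test at the 95% level, where chance alone marks about 1 group in 20. *H19* was at 97.6 CPM in male replicate 2 at 3 weeks (the next library held 47.9) and at 73.95 in female replicate 2 at 1 week (next: 36.5). *Igf1r* was at 24.2 in that same female, below the other 3 (next: 31.1). Among uninduced females, replicate 3 held *Igf1* at 8.95 (next: 11.9) and *Igfbp5* at 137 (next: 102), and replicate 1 held *Igfbp6* at 5.57 (next: 10.5). *Igfbp3* in male replicate 4 at 3 weeks was at 9.20 (next: 15.6), and *Igfbp7* in male replicate 4 at 1 week at 397 (next: 450.1). *Igf2r* was at 183 in female replicate 3 at 6 weeks (next: 139).

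The 2 male libraries with contradicting labels entered no comparison. *Il11*, the induced gene, was at 511 CPM in the library with a control title and a 6-week description and at 0.597 in the library with a 6-week title and a control description, which goes against both titles. In the first, *Igfbp4* (520.4 CPM), *Igfbp7* (329), *Igfbp5* (110.3), *H19* (35.4), *Igf1* (24.3), *Igfbp3* (20.2) and *Igf2* (3.20) were above all 3 male controls. Its *Igf2r*, at 174, and *Igfbp6*, at 8.33, lay below all 3. In the second, *Igfbp5* (87.1), *Igfbp4* (75.5), *Igfbp6* (17.3) and *Igf2* (1.75) were above them. Its *Igf1* was at 6.41, *Igfbp7* at 143 and *H19* at 15.7. The share of all genes above the controls in either library was not counted, so these lists say nothing particular to the members.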

How the results depend on the processing

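Of the 200 values tested for the members (10 members, 10 comparisons, both sexes), 75 were called. Pseudocounts of 0.1 and 2, no filter and median-of-ratios scaling kept the call, or lack of one, of all 200. Over every alternative 2817 of 2920 values kept theirs, 90 lost a call and 13 gained one, and all 95 changes of sign were of values without a call. The cause was not tested in any case below.

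When the titles decided the group of the 2 male libraries, the members called in males fell to 0 at 3 weeks, 6 weeks and in uninduced hearts against control, and to 1, 0 and 1 at 1, 3 and 6 weeks against uninduced hearts. This placement ended 31 calls, and the *Il11* values of both libraries, 511 CPM under a control title and 0.597 under a 6-week title, go against it. Placed by their descriptions they ended 3 calls, all of *Igfbp6* (at 6 weeks against control the adjusted p from limma was 0.557), and 1 member, *Igf2*, was called at 6 weeks against 1 week (adjusted p = 0.0463). The share of all genes called under either placement is not given here, so these counts say nothing particular to the members. With a minimum log2 fold change of 1 the count moved by over 1.5 times in 4 comparisons: 3 members were called in males and 2 in females at 1 week against uninduced hearts, 1 in uninduced females against control and 1 in females at 6 weeks against 1 week.

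Leaving out 1 library gave 5 to 7 members called in males at 6 weeks against control, where 8 were called with all libraries (lowest without control replicate 3). It gave 0 to 1 in uninduced males against control (0 without control replicate 1 or 3 or uninduced replicate 1), 0 to 1 in males at 6 weeks against 1 week (1 without 6-week replicate 3), 3 to 7 in females at 6 weeks against uninduced hearts (lowest without 6-week replicate 2) and 0 to 3 in females at 6 weeks against 1 week (0 without 1-week replicate 4 or 6-week replicate 2 or 3). A group of 3 then holds 2 libraries and shares the spread of the fit. Shares of all genes called in these refits are not given here, so the counts say nothing particular to the members.

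Replicate numbers did not pair the libraries, and with the replicate number as a block 1 call was gained, that of *Igfbp3* in females at 6 weeks against control (-0.40, adjusted p = 0.0486 from limma), and no other call changed. *Igf2* is limited by depth, with 13 reads in its lowest library.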
